A study of Caenorhabditis elegans with 2 samples.

Results

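The genes described here carry the target-of-rapamycin (TOR) and AMP-activated kinase (AMPK) growth switch of Caenorhabditis elegans. They were taken from a list of 8 genes among 19973 protein-coding genes on the 6 nuclear chromosomes: let-363, daf-15, rict-1, raga-1, rheb-1, rsks-1, aak-1 and aak-2. All 8 were found in the annotation. The assay was chromatin immunoprecipitation with sequencing, which lists the stretches of DNA (peaks) recovered with a protein, here an eGFP fusion of the zinc finger protein C16A3.4. Whole L1 larvae, the first larval stage, with the sex given as pooled male and female, were used from strain OP345. This strain carries the integrated transgene wgIs345 and the unc-119(ed3) mutation. Both samples, labelled biological replicates 1 and 2, belong to this single group with no other condition. The sources used here do not name the promoter that drives the transgene or the number of animals pooled, the labels give the age as unknown, and peak lists offer no markers by which stage or tissue could be checked. In whole animals, binding in fewer cells and weaker binding in each cell cannot be told apart.

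TOR is a protein kinase that promotes growth when nutrients are plentiful, and AMPK is a kinase that restrains growth when cellular energy is low. TOR works in complexes that differ by a scaffold subunit: Raptor defines TORC1 and Rictor defines TORC2. TORC1 is switched on at the lysosome by the small GTPases Rag and Rheb, and it raises protein synthesis in part through the ribosomal S6 kinase. In worms, lowering TOR activity or raising AMPK activity is known to extend lifespan, and TORC2 is known to influence fat storage.

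From the deposited files, 4 peak lists on build ce11 were used. The thresholded list held 3220 peaks, the pooled list 21096, and the list of each replicate 30000. Each peak has a signal value given by the authors on a scale that is not stated, and peaks were ranked by it within their own list. Signals ran down to 48.4 in the thresholded list, 13.95 in the pooled list, 7.57 in replicate 1 and 6.54 in replicate 2. All thresholded peaks also stand in the pooled list with the same signal and rank. Read counts are not part of these lists, and the depth behind a signal is unknown. Positions are given in bp from the annotated 5′ end of the gene, negative upstream, and the promoter window reaches from 1000 bp before that end to 200 bp past it. Because trans-splicing and operons are common in worms, the annotated 5′ end need not be the start of transcription.

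Thresholded peaks stood in the promoter windows of daf-15, rict-1 and rheb-1 and in the first intron of aak-2. The sequence under the strongest peak of each of these 4 genes is shown. Another thresholded peak stood in intron 29 of let-363, with rank 1533 in replicate 1 and 2217 in replicate 2. Its sequence is not shown, although the results below use that peak too. Each run is 151 bases of build ce11, centred on the summit and read in the direction of the gene, and the 11 bases around the summit are in capitals. The daf-15 run is on the plus strand at chrIV:9386146-9386296, the rict-1 run on the minus strand at chrII:13117250-13117400, the rheb-1 run on the minus strand at chrIII:9456246-9456396, and the aak-2 run on the plus strand at chrX:16796991-16797141.
daf-15: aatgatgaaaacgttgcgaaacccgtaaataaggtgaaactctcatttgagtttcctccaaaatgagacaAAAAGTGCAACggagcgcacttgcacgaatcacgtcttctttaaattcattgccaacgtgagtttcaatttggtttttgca
rict-1: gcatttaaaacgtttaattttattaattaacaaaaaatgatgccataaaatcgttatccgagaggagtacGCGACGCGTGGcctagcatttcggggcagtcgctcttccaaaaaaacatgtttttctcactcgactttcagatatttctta
rheb-1: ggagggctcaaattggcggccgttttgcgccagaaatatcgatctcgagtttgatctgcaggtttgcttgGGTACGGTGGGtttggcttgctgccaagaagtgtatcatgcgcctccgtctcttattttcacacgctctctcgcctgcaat
aak-2: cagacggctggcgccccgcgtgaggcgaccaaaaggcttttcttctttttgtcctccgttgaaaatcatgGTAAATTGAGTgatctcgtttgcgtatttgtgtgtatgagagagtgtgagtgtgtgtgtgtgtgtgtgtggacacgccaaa

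These 4 windows differed in base composition. G and C made up 37.1% of the rict-1 window and 39.1% of the daf-15 window, against 49.0% at the aak-2 peak and 52.3% at rheb-1. Over all 3220 thresholded windows of the same length the median was 43.7%, with quartiles at 39.1% and 49.0%. Short words searched on both strands were the E-box CACGTG, which basic helix-loop-helix factors bind, the forkhead word GTAAACA, the GATA word TGATAA, and the repeat GAGAGA. The first 3 words occurred in none of the 4 windows; among all thresholded windows the E-box occurred in 7.11%, the forkhead word in 4.32% and the GATA word in 9.1%. GAGAGA occurred in the rheb-1 window, 61 bases past the summit, and in the aak-2 window, 32 bases past it, against 33.1% of all thresholded windows. No other word searched overlapped it. A match is a run of letters in this window and says nothing about which factor was there. The window of the same length at the let-363 peak, whose sequence is not shown, had 41.1% G and C and none of these words. Windows at the weaker aak-2 peaks, at 3239 and 2677 bp and also not shown, had 49.7% and 44.4% G and C. The one at 3239 bp held 2 overlapping GAGAGA matches, 26 and 28 bases past the summit. At 2677 bp none of the words occurred.

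Members of the group that carried a thresholded peak in the promoter window were daf-15, rict-1 and rheb-1, 3 of 8 genes. Among all protein-coding genes the share was 13.7%. The other 5 (let-363, raga-1, rsks-1, aak-1 and aak-2) had none there. With a window from 2000 bp upstream the count was 5 of 8, against 17.4% of all protein-coding genes, and let-363 and rsks-1 joined. The summit that added let-363 lay at −2 bp from the 5′ end of another gene, mrpl-47. Inside the annotated gene, let-363, daf-15 and aak-2 held a thresholded summit, 3 of 8 against 3.44% of all protein-coding genes. The daf-15 summit counts at both places, since it lies just inside the gene and within the window. Long genes hold summits more often: the share was 1.09% for genes up to 2 kb, 3.36% from 2 to 5 kb, 8.28% from 5 to 10 kb and 16.6% above 10 kb. The 3 genes with a summit inside were 7312 to 17682 bp long. In all, 5 of the 8 genes had 7 thresholded peaks at either place and 3 genes had none: raga-1, rsks-1 and aak-1. The genes were listed with earlier results of these data known and the counts are small, so no test was made on them.

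**Figure D1:**
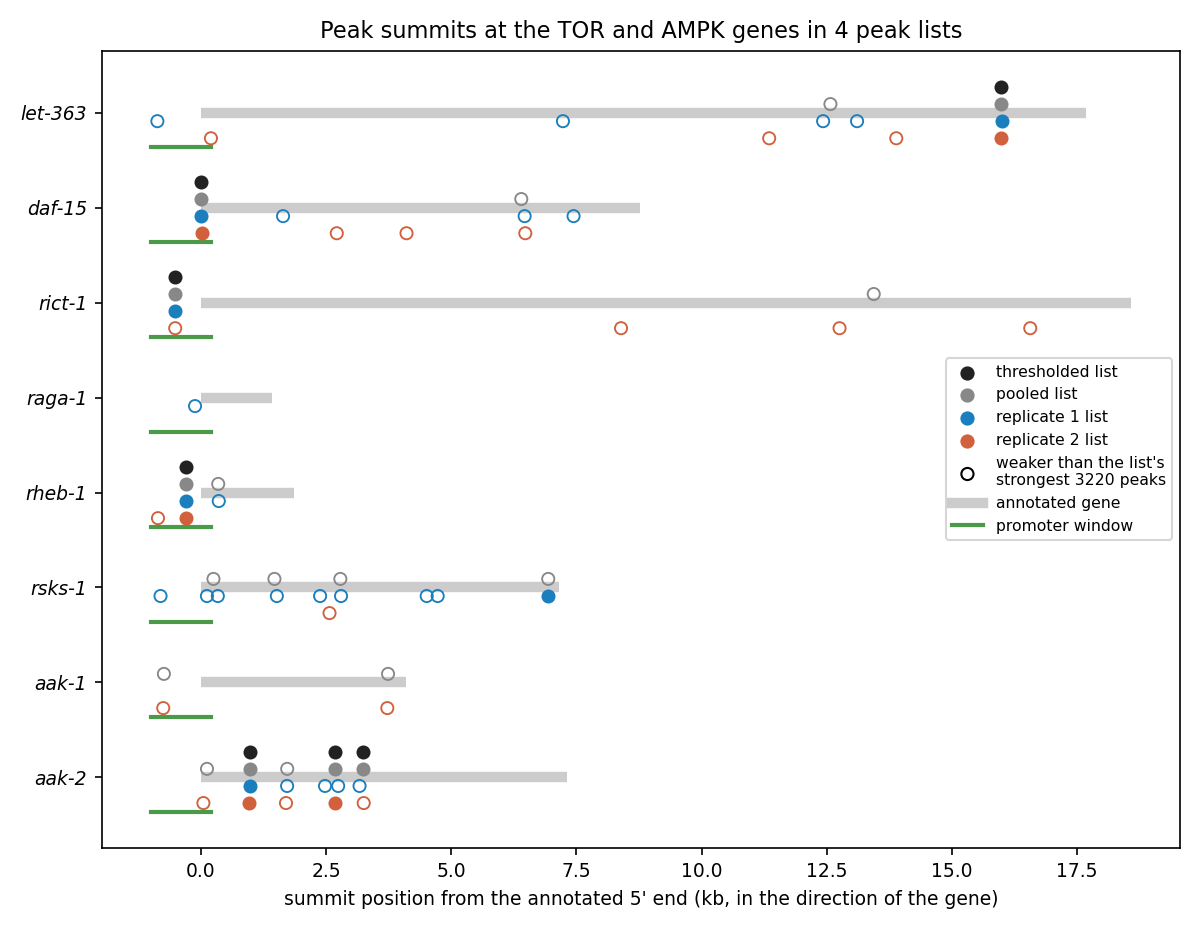
Summit positions at the 8 genes, in kb from the annotated 5′ end in the direction of the gene, in the thresholded, pooled, replicate 1 and replicate 2 lists (rows of points from top to bottom within each gene). Filled points are among the strongest 3220 peaks of their list and open points are weaker, the grey bar is the annotated gene and the green bar the promoter window. Filled points of all 4 lists line up at let-363, daf-15, rheb-1 and the first aak-2 peak, while raga-1 and aak-1 have open points only.

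The TOR kinase gene itself, let-363 (WBGene00002583; chromosome I, 5245743 to 5263424, plus strand), had no thresholded or pooled summit in its promoter window. Its thresholded peak lay far inside the gene, at positions 5261555 to 5261898, with the summit 15984 bp from the 5′ end and 1697 bp before the 3′ end, in intron 29 of 31. The signal was 78.5 (rank 1794 of 3220) in the thresholded list, 36.1 (rank 1533) in replicate 1 and 40.8 (rank 2217) in replicate 2. Both replicates placed their summits within 20 bp of it. Measured from vep-1, the protein-coding gene with the nearest 5′ end, the summit was at −1967 bp, and no other annotated gene covered it. A stronger peak, with a signal of 151.6 and rank 587, sat at −1462 bp from let-363 and thus outside the window. That summit lay at −2 bp from the 5′ end of mrpl-47, a mitochondrial ribosomal protein gene on the same strand that ends 341 bp before let-363 begins. The replicates gave it signals of 81.9 and 70.3. In the promoter window proper, replicate 1 alone listed a summit, at −868 bp with a signal of 7.64 and rank 29503, near the floor of its list and inside an intron of mrpl-47. The pooled list added a weak summit at 12574 bp, with a signal of 14.3, that neither replicate matched within 100 bp.

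The Raptor gene daf-15 (WBGene00000911; chromosome IV, 9386208 to 9394979, plus strand) carried its peak right at the annotated start. The peak spanned 9386049 to 9386392, with the summit 13 bp downstream of the 5′ end in the first exon of isoform C10C5.6c.1. The other 4 annotated isoforms begin further downstream, so the same summit lay at −229 or −236 bp from their 5′ ends. No other protein-coding gene's window held the summit, and the upstream neighbour C10C5.7, on the same strand, ended 493 bp before daf-15. The thresholded signal was 111.6 (rank 1040), with 35.9 (rank 1548) in replicate 1 and 75.9 (rank 845) in replicate 2. The replicate summits lay 16 bp and 13 bp from the thresholded one. A second, weak summit at 6400 bp inside the gene appeared in the pooled list with a signal of 20.95 and rank 9337, and its replicate signals were 8.40 and 9.68.

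The Rictor gene rict-1 (WBGene00009245; chromosome II, 13098239 to 13116810, minus strand) shared its peak with a divergent neighbour. The peak lay at 13117153 to 13117496, with the summit at −515 bp from rict-1 but at −158 bp from gfm-1, which encodes a mitochondrial translation elongation factor and starts 673 bp away on the other strand. The signal therefore cannot be assigned to either gene. It was the weakest of the 3 promoter peaks, with 60.7 (rank 2485) in the thresholded list. Replicate 1 ranked it 1389 with a signal of 38.4 and replicate 2 ranked it 4239 with a signal of 23.5, outside the 3220 strongest peaks of that replicate. The replicate summits were within 5 bp of the thresholded summit. Inside the gene the pooled list gave a summit at 13439 bp, with a signal of 14.0 near the lowest in that list, and neither replicate had a summit within 100 bp of it. Replicate 2 listed 3 other weak summits inside rict-1 and replicate 1 listed none.

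The RagA GTPase gene raga-1 (WBGene00006414; chromosome II, 11301359 to 11302776, plus strand) had no summit in the thresholded, pooled or replicate 2 lists at either place. Replicate 1 alone listed a weak summit at −116 bp, with a signal of 11.3 and rank 13205. That summit lay in the 3′ untranslated region of saps-1, which ends 99 bp before raga-1 on the same strand. With 1418 bp, raga-1 is the shortest of the 8 genes.

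The Rheb gene rheb-1 (WBGene00010038; chromosome III, 9454163 to 9456030, minus strand) had the strongest peak of the 8 genes in the thresholded list. The peak at 9456149 to 9456492 had its summit at −291 bp from rheb-1 and at −287 bp from spk-1, which encodes an SR-protein kinase and starts 578 bp away in the opposite direction. The summit was thus almost midway between both 5′ ends, and the signal is shared. It was 161.5 (rank 500) in the thresholded list, 76.8 (rank 367) in replicate 1 and 84.6 (rank 691) in replicate 2, and the replicate summits lay within 4 bp. Another thresholded peak, with a signal of 55.3, lay at −1497 bp from rheb-1, outside the window, which is 919 bp downstream of the 5′ end of spk-1. A weak pooled summit at 347 bp inside rheb-1, with a signal of 17.8, was matched in replicate 1 (16.6) and not in replicate 2.

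The S6 kinase gene rsks-1 (WBGene00012929; chromosome III, 11245120 to 11252281, plus strand) had no thresholded peak at either place. Its nearest one stood outside the window, at 11243362 to 11243705, with the summit at −1586 bp, a signal of 143.8 and rank 650. In the replicates the signals there were 51.6 and 94.6, with summits at −1507 and −1576 bp. No protein-coding 5′ end was nearer to that summit than the one of rsks-1. Inside the gene the pooled list gave 4 summits. The strongest, with a signal of 32.3 and rank 5021, was in the 3′ untranslated region 6938 bp from the 5′ end and at −333 bp from the neighbour Y47D3A.32. It was listed in replicate 1, with a signal of 25.9 and rank 2446, and had no replicate 2 summit within 100 bp. The other 3 pooled summits, with signals of 15.8 to 18.7, also had a match in replicate 1 and none in replicate 2. In the promoter window replicate 1 alone listed summits, at 122 bp with a signal of 14.2 and at −805 bp with 7.68.

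AMPK has catalytic alpha subunits encoded by aak-1 and aak-2, and the lists differed between them. The gene aak-1 (WBGene00019801; chromosome III, 8756990 to 8761090, minus strand) had only weak pooled summits, at −738 bp with a signal of 14.9 (rank 18457) and at 3739 bp with 18.7 (rank 11604). Replicate 2 listed both, with signals of 8.80 and 8.02, and replicate 1 listed neither. The gene aak-2 (WBGene00020142; chromosome X, 16796087 to 16803398, plus strand) held 3 thresholded summits, and 0.18% of all protein-coding genes (36 genes) held 3 or more. That share is over genes of all lengths, and long genes hold summits more often. No share was taken over genes of similar length. The gene aak-2 is 7312 bp long and aak-1 is 4101 bp long. With 1 group of samples the difference between aak-1 and aak-2 was not tested.

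All 3 of the aak-2 summits lay in its first intron, which is 3475 bp long in the isoforms T01C8.1a.1 and T01C8.1b.1. The strongest, at 16796894 to 16797237, had its summit 979 bp from the 5′ end and a signal of 159.6 (rank 515), with 53.9 (rank 778) in replicate 1 and 108.7 (rank 391) in replicate 2. A 60 bp non-coding RNA gene on the opposite strand, T01C8.9, lies 49 bp past this summit. The next, at 16799154 to 16799497, had its summit at 3239 bp and a signal of 50.1 (rank 3097), with 19.3 (rank 3895) in replicate 1 and 28.0 (rank 3508) in replicate 2. The third, at 16798592 to 16798935, had its summit at 2677 bp and a signal of 49.0 (rank 3165), just above the lowest signal of the thresholded list. The short isoform T01C8.1c.1 starts inside the same region, and these weaker summits lay at −381 and −943 bp from its 5′ end. With the 5′ end of any transcript in place of the gene's own, 4 of the 8 genes had a thresholded promoter summit, aak-2 among them, against 14.5% of all protein-coding genes. At the gene's own start the pooled list gave a weak summit at 123 bp, with a signal of 19.6 and rank 10684, and replicate 2 gave one at 51 bp with a signal of 17.8.

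**Figure D2:**
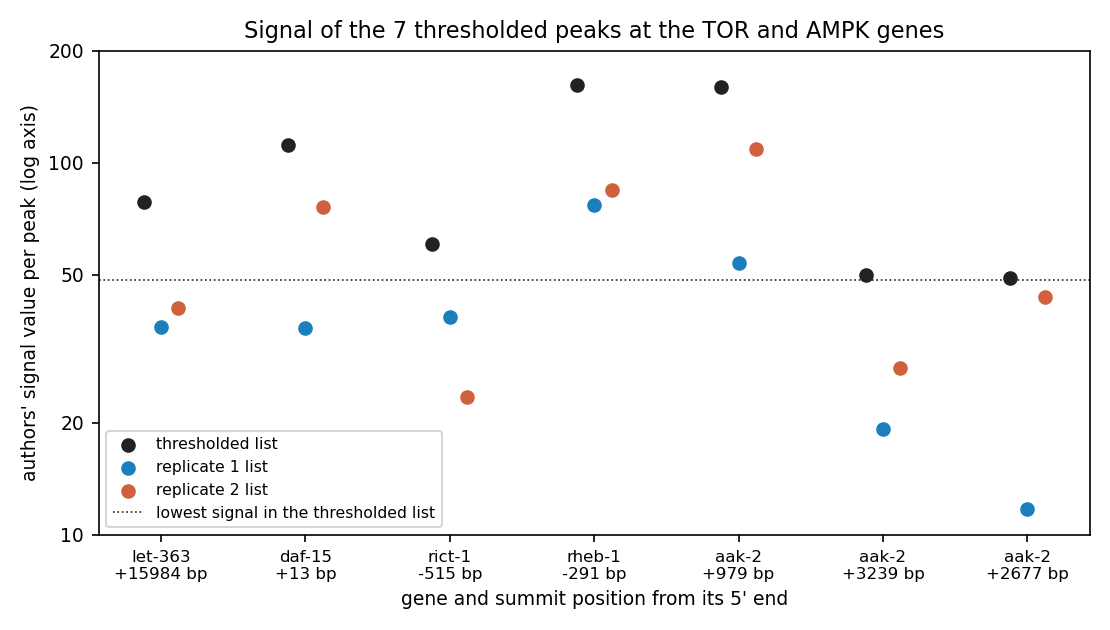
The authors' signal value, on a log axis, of the 7 thresholded peaks at the 8 genes, labelled by gene and summit position from the 5′ end. Points are the thresholded list and the nearest summit within 100 bp in each replicate, and the dotted line is the lowest signal in the thresholded list, 48.4. The rheb-1 peak (161.5) and the first aak-2 peak (159.6) are highest, and the last 2 aak-2 peaks sit just above the line.

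The replicates gave different weights to these peaks. All 7 thresholded peaks had a summit within 100 bp in both replicates, and 4 were among the 3220 strongest peaks of each replicate: those of let-363, daf-15, rheb-1 and the aak-2 peak at 979 bp. The other 3 were not. Over the 2996 thresholded peaks matched in both replicates (93%), the replicate 2 signal was 1.46 times that of replicate 1 at the median, with quartiles of 1.10 and 1.96. At rict-1 the ratio was 0.611, lower than at all but 3.14% of matched peaks. At the aak-2 summit at 2677 bp the ratio was 3.72, higher than at 96% of them, with signals of 11.7 (rank 12124) in replicate 1 and 43.7 (rank 2015) in replicate 2. The replicate 1 summit used there lay 66 bp away, and matching within 50 bp left none, so this ratio depends on the matching distance. The ratios at daf-15 (2.11) and at the aak-2 peak at 979 bp (2.02) were higher than at 79.9% and 77.2% of peaks. Those at let-363 (1.13), rheb-1 (1.10) and the aak-2 summit at 3239 bp (1.45) lay nearer the median. With 2 replicates these ratios have no error of their own, and whether sequencing depth differed is unknown.

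**Figure D3:**
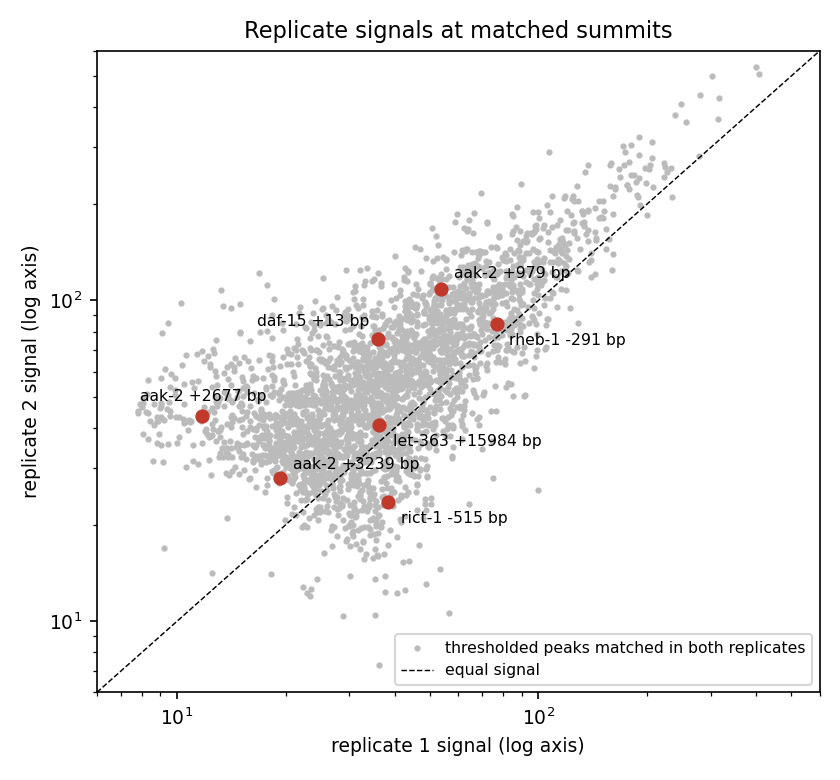
Replicate 1 against replicate 2 signal, both on log axes, at the 2996 thresholded peaks with a summit within 100 bp in both replicates (grey) and at the 7 peaks of the TOR and AMPK genes (red). The dashed line marks equal signal. The rict-1 peak lies below the line (ratio 0.611), and the aak-2 summit at 2677 bp lies far above it (ratio 3.72). The replicate 1 summit matched to the latter was 66 bp away.

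Over all protein-coding genes, summits were more frequent in the relaxed lists. In the pooled list 5 of 8 genes had a promoter summit (daf-15, rict-1, rheb-1, aak-1 and aak-2), against 36.5% of protein-coding genes, and 7 of 8 had a summit inside the gene, against 32.4%. Only raga-1 had none inside. By length, the share of genes with a pooled summit inside was 16.1% up to 2 kb (raga-1, rheb-1), 38.1% from 2 to 5 kb (aak-1), 63.4% from 5 to 10 kb (daf-15, rsks-1, aak-2) and 84.6% above 10 kb (let-363, rict-1). In the strongest 10548 pooled peaks the promoter count was 3 of 8, against 25.5%, and the count inside was 4 of 8, against 14.6%. In the strongest 21096 peaks of replicate 2 alone the count inside was 4 of 8, against 34.3%, and in those of replicate 1 it was 5 of 8, against 33.3%. The promoter count in those of replicate 2 was 5 of 8, the same genes as in the pooled list, against 35.5%. For replicate 1 it was also 5 of 8, against 34.9%, but with raga-1 and rsks-1 in place of aak-1 and aak-2. In the whole replicate 1 list 6 of 8 had a promoter summit, against 43.3%, and in replicate 2 5 of 8, against 42.9%. When each replicate was cut to its own 3220 strongest peaks, daf-15, rict-1 and rheb-1 had a promoter summit in replicate 1, 3 of 8 against 13.3%, and daf-15 and rheb-1 had one in replicate 2, 2 of 8 against 13.1%. The promoter summits of let-363, raga-1, rsks-1, aak-1 and aak-2 in the relaxed lists had signals of 7.64 to 19.6. Summits just past the downstream edge of the window included a replicate 2 summit at let-363, at 202 bp with a signal of 6.95. A pooled one lay at rsks-1, at 252 bp with a signal of 15.8. Pooled summits upstream of the window included those at aak-2 (−1235 bp, signal 24.6), rsks-1 (−1384 bp, 27.6) and aak-1 (−1409 bp, 18.2). The one at aak-2 was stronger than the pooled summit in the aak-2 window (19.6).

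For each promoter peak, the thresholded promoter peak with the most similar ranks in the thresholded, replicate 1 and replicate 2 lists was sought among 1887 others. For rheb-1 it was the peak of sti-1, a co-chaperone gene, with a thresholded signal of 157 and ranks that differed by 60 in sum. For daf-15 it was the peak of lin-15B (signal 112.4, sum 84). For rict-1 it was that of ech-2 (signal 64.3, sum 430), with replicate ranks of 1369 and 3987.

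The wider pathway was described with 42 further genes, of which 41 matched the annotation by gene name. The name epg-1 had no match, and that gene was not assessed. A thresholded promoter peak was found at 11 of the 41 (26.8%), against 13.7% of all protein-coding genes, and 30 had none. Among partners and inputs of the TOR complexes, 2 of 11 had a peak, near the 13.7% of all protein-coding genes. They were ragc-1, the RagC partner of RagA (signal 89.4), and lmtr-3, a subunit of the Ragulator scaffold that anchors Rag GTPases (122). Both summits also lay in a neighbour's window, that of Y24F12A.1 at ragc-1 and that of atp-5 at lmtr-3. Among kinases beside TOR, akt-2, a relative of protein kinase B, alone of 5 had a peak (170.9). Of the 9 outputs, 5 had one: larp-1, an RNA-binding protein gene (476, rank 17), mafr-1, a repressor of RNA polymerase III (98.6), rps-6, the ribosomal substrate of S6 kinase (85.8), mxl-3, a basic helix-loop-helix gene (57.4), and efk-1, the elongation factor 2 kinase gene (48.6). The larp-1 summit lay at −669 bp from larp-1 and at −320 bp from wip-1, and it was strong in both replicates (180.3, rank 33, and 305.7, rank 12). The rps-6 summit, at −283 bp, was also nearer to another gene, usp-3. At mafr-1 and mxl-3, whose summits lay in no other protein-coding window, the replicates gave 39.2 and 47.2, and 21.0 and 35.3. The efk-1 summit had rank 3204, near the floor of the thresholded list, and lay in an intron of another protein-coding gene, F42A10.9. Its replicate signals were 18.9 (rank 4064) and 30.2 (rank 3207).

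Among AMPK partners and upstream kinases, 2 of 13 had a thresholded promoter peak, near the 13.7% of all protein-coding genes. They were the beta subunit gene aakb-2 (102) and the gamma subunit gene aakg-5 (93.8). The aakb-2 summit was nearer to the 5′ end of Y47D3A.14, and the aakg-5 summit, at −61 bp, had ranks of 2575 and 1125 in the replicates. The other beta subunit gene, aakb-1, the other 4 gamma subunit genes and par-4, which encodes the LKB1 kinase that activates AMPK, had none. Of 3 AMPK targets, crh-1, the CREB transcription factor gene, had a peak (90.6), while crtc-1 and pod-2 had none. In 5 of these 11 cases another protein-coding window held the summit as well, and in 3 the nearest 5′ end was that of another gene. Another 12 of the 41 genes had a pooled summit only, with signals of 14.8 to 36.7, and 18 had no pooled summit. In all, 23 of the 41 (56.1%) had a pooled promoter summit, against 36.5% of all protein-coding genes. Since 11 genes is a small count and the list was chosen with earlier results known, it is given without a test.

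**Figure D4:**
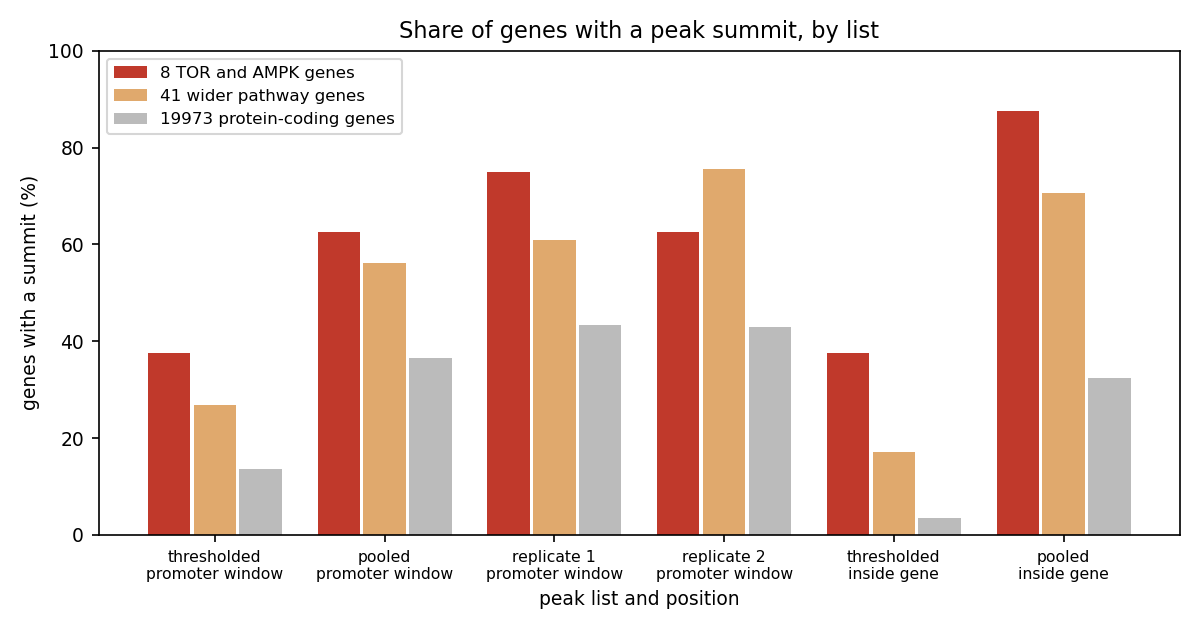
Percentage of genes with a summit in the promoter window (first 4 groups of bars) or inside the annotated gene (last 2 groups), for the 8 TOR and AMPK genes, the 41 wider pathway genes and all 19973 protein-coding genes. In the thresholded list the promoter shares are 37.5%, 26.8% and 13.7%. The bars of the 8 genes rest on counts of 3 to 7.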

How the data were processed

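The files used are the authors' peak lists on build ce11, deposited as narrowPeak text. Replicate and pooled lists were derived from alignments and a control, and the thresholded list from them by the irreproducible discovery rate (IDR), per the submitters' deposited notes. The 3220 thresholded peaks were the strongest 3220 of the pooled list. The sources used here name no aligner or peak caller. The deposited signal value per peak and the deposited −log10 q value (highest 3.84 in the thresholded list, tied across all of it) were taken as they stand, and only the signal was used to rank peaks. Summits are column 2 plus column 10 of each list.

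Summits were placed on WBcel235, the same assembly as ce11, with the Ensembl release 115 annotation, in Python 3.11.15 with numpy 2.4.6 and matplotlib 3.10.9. A gene counted when a summit lay within 1000 bp upstream to 200 bp downstream of its 5′ end, or between its ends. Replicate summits were matched within 100 bp, and the placement of summits was tested on simulated data. No statistical test was run, since the samples form 1 group. The members and the lists of other genes were chosen with earlier results of these data known. All 8 genes were named, of the wider list the genes with a thresholded promoter peak (up to 10 by the rule, and efk-1, the weakest of 11, was added after its value was seen), and for each promoter peak the most similar one. The aak-2 sequence was added after its values were seen. Alternatives covered the window, peak regions, transcript ends, list size, each replicate alone and the matching distance. Lists on build ce10 were not used here.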

Additional observations from a re-analysis of the deposited data

How the results depend on the processing

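The 3 thresholded promoter genes became 5 with a window from 2000 bp upstream, which took in the peaks upstream of let-363 and rsks-1. The one upstream of let-363 had its summit at the 5′ end of mrpl-47. The same window gave 5 in replicate 1's own strongest peaks, against 16.9% of all protein-coding genes, and 4 in replicate 2's, against 16.8%. These last 2 counts were chosen after seeing the data. With the strongest 10548 pooled peaks the pooled promoter count fell from 5 to 3 and the count inside genes from 7 to 4. Without either replicate the count inside genes was 4 to 5. The thresholded promoter count was 2 without replicate 1, against 13.1% of all protein-coding genes, and 3 without replicate 2, against 13.3%. The other alternatives kept each count within 1.5 times. The thresholded promoter count was 2 to 4 genes, and 9 to 15 of the 41 wider genes. The share of all protein-coding genes moved as well, from 8.15% with the strongest 1610 peaks to 20.2% with the strongest 6440 pooled peaks. At 20.2% the members' count stayed at 3, and the wider count was 15. Matching summits within 50 bp lost 2 of 7 replicate 1 matches, both at aak-2, and 200 bp changed none.

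Depth is unknown, each list was made by the authors, and 84.8% of thresholded summits lay within 1 bp of the centre of the peak. How exact the summit positions are was not tested. No read counts, inputs or other tagged proteins were analysed here. A peak in a window shared by neighbouring genes cannot be assigned to either.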
